A study of Mus musculus with 8 samples.

Results

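Transcripts of 10 genes were followed that set how much pyrophosphate, phosphate and adenosine surround a cell, or that hold back calcification directly, in cultured mouse aortic smooth muscle cells (MASMCs) from wild-type and Hint1-/- mice. The 10 genes were taken by symbol from the 18533 genes of the count files. They are Enpp1, Enpp3, Ank and Abcc6 on the pyrophosphate side, Alpl as the phosphatase, Entpd1 and Nt5e for adenosine, Slc20a1 and Slc20a2 as phosphate carriers, and Mgp as the inhibitor. All 10 were listed, and 9 of them passed the filter on low counts and were tested among 13535 genes. Abcc6 did not pass.

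MASMCs came from wild-type (WT) mice and from Hint1-/- mice, a constitutive knockout of histidine triad nucleotide-binding protein 1 that the study obtained from another laboratory. The background strain and the deleted exons are not given in the sources used here. Each genotype had 4 libraries. All 8 cultures received PDGF-BB, a growth factor that drives smooth muscle cells out of the contractile state, at 20 ng/ml for 24 h, so an untreated state was not compared here. According to the study's methods, the cells were digested with collagenase from aortas of male mice a few weeks old after the adventitia and endothelium had been taken off. One passage names the thoracic aorta and another the whole aorta. Nothing in the labels says that the libraries of a genotype came from separate mice or cultures, so p-values measure only the spread between these libraries, which may be technical. The comparison asks which transcripts differed in PDGF-BB–stimulated cells between the genotypes.

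Extracellular ATP is cut by ENPP1 into AMP and pyrophosphate, and pyrophosphate blocks the growth of hydroxyapatite crystals in the vessel wall. ANK and ABCC6 raise extracellular pyrophosphate by letting ATP out of the cell, whereas ALPL, the tissue-nonspecific alkaline phosphatase, breaks pyrophosphate down to phosphate. In a parallel branch ENTPD1 (CD39) and NT5E (CD73) turn ATP and ADP into AMP and then into adenosine, and MGP, a vitamin K–dependent matrix protein made by smooth muscle cells, restrains arterial calcification on its own.

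Alpl was the member with the largest difference between the genotypes, and the only one past both thresholds of the comparison, a fold change over 1.5 and, in the quasi-likelihood test of edgeR, an adjusted p below 0.05. RefSeq gives Alpl 2 starts, 29.9 kb apart, and the counts, which are sums per gene, do not separate them. The 300 bases around each start (250 before it and 50 after it) are shown because an increase in Alpl counts may come from either one. The promoter of Ank is shown beside them, as Ank was the member with the largest decrease. Sequences are 5′ to 3′ on the strand of the gene, from RefSeq on GRCm38.p6, the assembly that mm10 stands for. Capitals mark matches to GCCNNNGGC, a motif of the AP-2 factors that the study examined, or to TATAAA, on either strand.
Alpl, upstream start, chr4:137796335-137796634, minus strand: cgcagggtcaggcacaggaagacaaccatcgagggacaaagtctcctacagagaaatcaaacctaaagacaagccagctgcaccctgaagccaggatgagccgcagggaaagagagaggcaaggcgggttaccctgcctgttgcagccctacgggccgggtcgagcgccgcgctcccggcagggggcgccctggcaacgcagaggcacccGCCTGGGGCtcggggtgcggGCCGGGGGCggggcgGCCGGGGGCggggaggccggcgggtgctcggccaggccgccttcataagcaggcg
Alpl, downstream start, chr4:137766426-137766725, minus strand: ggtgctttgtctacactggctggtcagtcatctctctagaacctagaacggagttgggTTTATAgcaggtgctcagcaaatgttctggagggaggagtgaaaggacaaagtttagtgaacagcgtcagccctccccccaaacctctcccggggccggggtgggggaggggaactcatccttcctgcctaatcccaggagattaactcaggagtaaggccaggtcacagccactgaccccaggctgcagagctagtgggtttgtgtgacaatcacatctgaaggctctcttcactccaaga
Ank, chr15:27466427-27466726, plus strand: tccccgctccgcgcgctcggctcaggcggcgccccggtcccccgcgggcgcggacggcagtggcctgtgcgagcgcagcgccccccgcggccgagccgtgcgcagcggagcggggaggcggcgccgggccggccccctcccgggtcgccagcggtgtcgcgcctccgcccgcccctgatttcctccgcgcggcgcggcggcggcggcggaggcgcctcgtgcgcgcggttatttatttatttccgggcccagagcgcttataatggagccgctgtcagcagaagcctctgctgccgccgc

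The upstream Alpl start lay in sequence of 70% GC with an observed-to-expected CpG ratio of 0.72. It held 3 AP-2 matches, beginning 40, 20 and 5 bases before the start, and no TATAAA. The downstream start had 54.3% GC, a CpG ratio of 0.18 and 1 TATAAA on the opposite strand, 192 bases before the start. The Ank promoter had 78.0% GC, a CpG ratio of 1.16 and no match to any motif searched. The other letters searched on both strands were CACGTG, an E-box, and TGTGGT, a RUNX motif. Over all 32851 RefSeq promoters of this length, 16.6% held GCCNNNGGC, 7.15% CACGTG, 16.8% TGTGGT and 13.6% TATAAA, and the medians were 52.7% GC and a CpG ratio of 0.38. The table gave 10 promoters for 7 of the 10 members. Besides the upstream Alpl start, AP-2 matches were found for Enpp1 with 1, Nt5e with 2 and the first Slc20a1 start with 2, and the first Slc20a1 start also held 2 E-boxes. RUNX matches were found for Enpp1, the second Entpd1 start and the first Slc20a1 start, with 1 each, and Enpp3 and the first Slc20a1 start held 1 TATAAA each. A match is a description of the letters and not of binding.

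The libraries held 20778077 to 20888041 estimated counts each, so depth differed little. Hint1 itself was counted 2272, 2336, 2364 and 2301 times in WT and 713, 748, 778 and 715 times in Hint1-/- libraries, or −1.64 in log2 with an SE of 0.037 (adjusted p = 6.77e-16, edgeR). Hint1 reads thus remained in the Hint1-/- libraries, at 0.321 of the WT level. Hint1 lies on chromosome 11 (chr11:54866383-54870501), which holds 0 of the 10 members. Summed markers of smooth muscle (Acta2, Myh11, Tagln and 4 more) were present at 1352 to 1469 CPM (counts scaled by library size) in WT and 1117 to 1207 CPM in Hint1-/- libraries, and 1 rose and 5 fell of the 7 tested. Macrophage markers were abundant in both genotypes, at 2073 to 2382 CPM in WT and 1701 to 1819 CPM in Hint1-/- libraries, and 5 of 7 fell, while Itgam and Mrc1, at −0.04 and 0.58 in log2, did not pass (adjusted p = 0.523 and 0.074, edgeR). Fibroblast markers summed to 1729 to 1800 CPM in WT and 2618 to 2753 CPM in Hint1-/- libraries, with 3 of 6 up and 2 down. Schwann cell markers summed to 44.8 to 50.6 CPM in WT and 11.9 to 13.6 CPM in Hint1-/- libraries, and 5 of 6 fell. Pericyte markers summed to 70.8 to 82.4 CPM in WT and 56.2 to 58.2 CPM in Hint1-/- libraries, and 2 of 4 fell. Endothelial markers were near the floor at 5.19 to 7.98 and 5.24 to 7.49 CPM, and 0 of 5 passed the adjusted p in edgeR (1 had an unadjusted p under 0.05). Markers of chondrocytes summed to 3.10 to 3.55 CPM in WT and 24.0 to 25.9 CPM in Hint1-/- libraries. Of these, Col2a1 rose by 3.41 (log2, SE 0.080, adjusted p = 6.77e-16, edgeR), Acan fell, and Matn1, Matn3 and Hapln1 were too low to test. None of the markers in the files was at 0 in all 8 libraries. With the adjusted p alone, 11.2% of all tested genes rose and 10.2% fell. All these sums except the endothelial one moved with the genotype, and their part in the differences below was not tested. In bulk libraries, fewer cells of a type and less RNA per cell cannot be told apart.

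**Figure D1:**
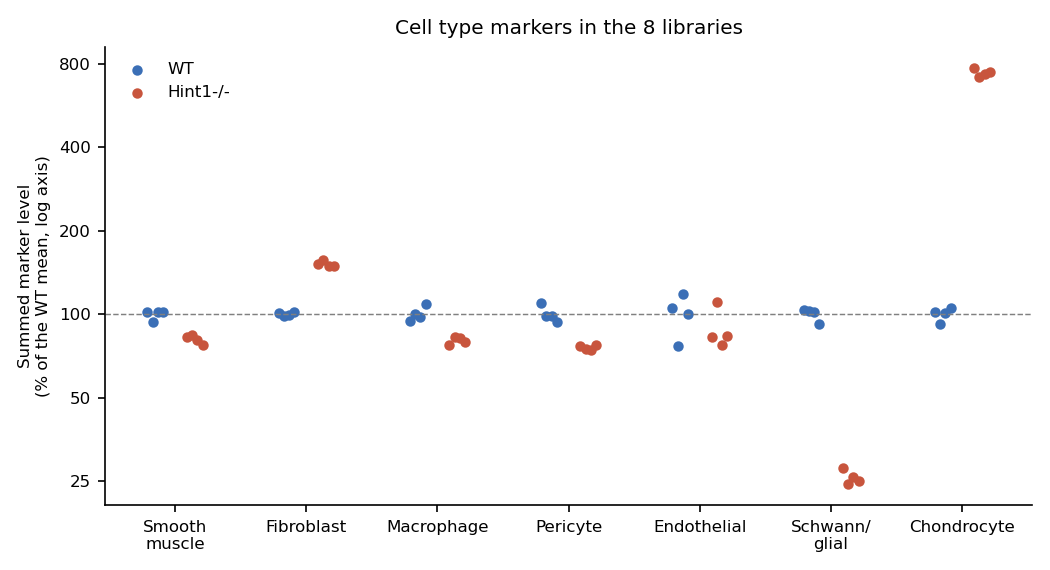
Summed level of each marker list in the 8 libraries as a percentage of the WT mean (log axis), 1 point per library, WT in blue and Hint1-/- in red. The Hint1-/- points lie below those of WT for smooth muscle, macrophage, pericyte and Schwann cell markers, above them for fibroblast and chondrocyte markers, and among them for endothelial markers.

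Of the 9 members tested, 1 (Alpl) passed both thresholds, against 2.83% of all tested genes. With the adjusted p alone, 4 passed, against 21.5% of all genes. Of these, Alpl rose, against 11.2% of all genes, and Ank, Mgp and Slc20a1 fell, against 10.2%. The 4 libraries of one genotype lay wholly above or below those of the other for 3 members (Alpl, Mgp and Slc20a1), against 23.0% of all genes. The median log2 fold change, Hint1-/- minus WT, was −0.06 over the 9 members and 0.0003 over all tested genes. The members ranged from −0.37 to 0.95. They were chosen with earlier results of these data known, so these shares are a description only.

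**Figure D2:**
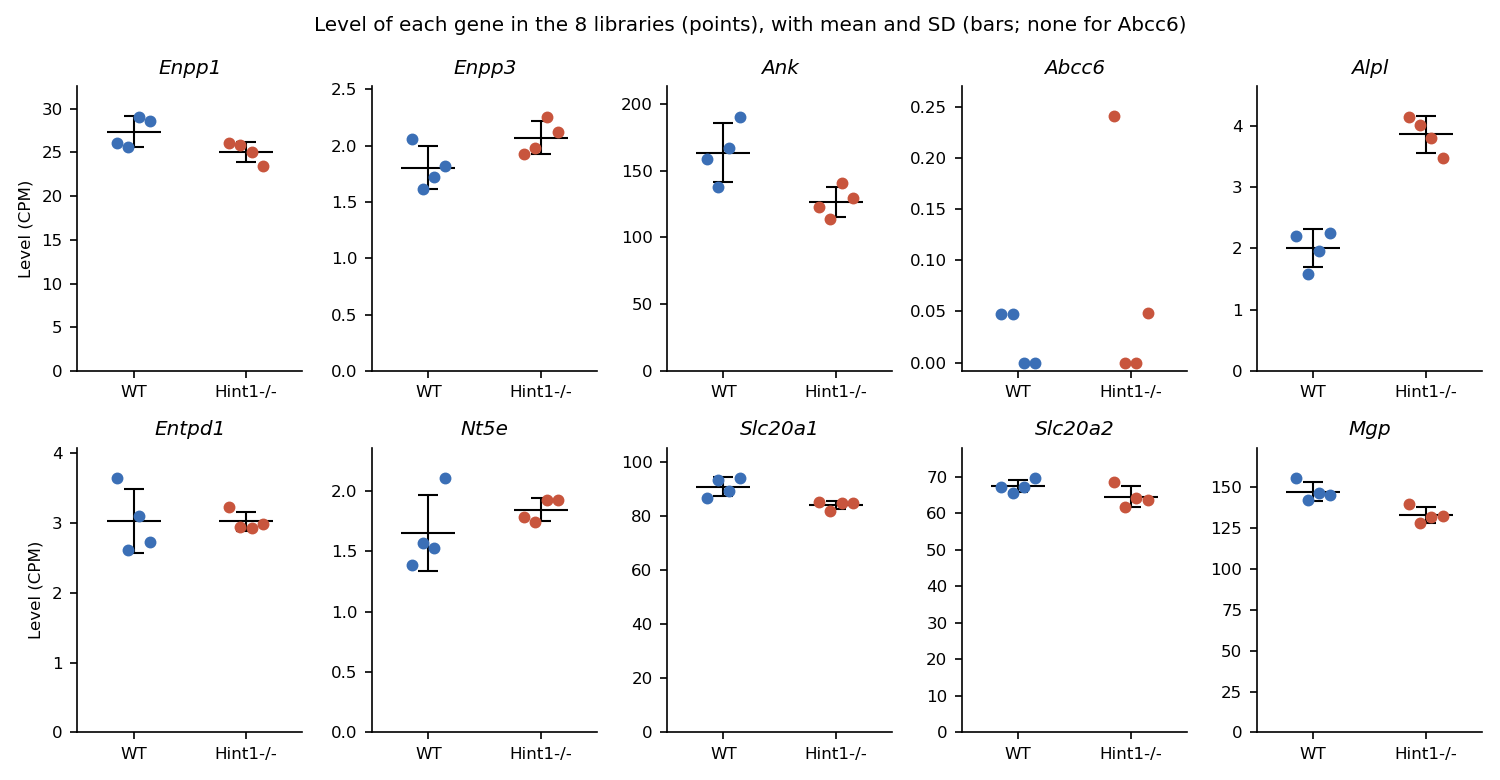
CPM of each member in the 4 WT (blue) and 4 Hint1-/- (red) libraries, with the mean and SD as black bars except for Abcc6. Alpl shows the widest gap for its level, the Ank points of the genotypes overlap at 1 library each, and those of Mgp and Slc20a1 are separate but close.

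Alpl is the phosphatase that removes pyrophosphate and frees phosphate at the cell surface. It was counted 46, 33, 41 and 47 times in the WT libraries and 86, 83, 79 and 72 times in the Hint1-/- libraries. Every Hint1-/- library was above every WT library, and the lowest of them was over 1.5 times the highest WT count. The mean level rose from 2.00 ± 0.311 to 3.86 ± 0.296 CPM (SD, n = 4), a fold change of 1.93 with a 95% interval of 1.57 to 2.37. In log2 this was 0.95 (SE 0.14, adjusted p = 7.94e-05, edgeR), the 517th smallest p of all tested genes. An exact two-sided permutation test over the 70 ways of splitting the libraries gave p = 0.0286, the smallest it can give with n = 4. Alpl passed both thresholds in all 16 alternatives tried, with log2 fold changes between 0.85 and 1.01, and no left-out library ended the call. These were low counts, fewer than 100 in any library. The gene covers chr4:137741733-137796384 on the minus strand of mm10 and has 4.03 kb of exon in GENCODE.

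The tested genes whose log2 CPM ran most like that of Alpl over the 8 libraries were Rasl12, Cxcl12 and Creld2, with Pearson's r of 0.990, 0.988 and 0.987. The libraries fall into the genotypes, so these values describe a shared difference between genotypes as much as a shared course within them. The genes rose by less than Alpl, by 0.23, 0.26 and 0.12 in log2.

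Ank, the membrane protein through which ATP and citrate leave the cell, was the member with the largest decrease. Its counts were 3317, 2893, 3491 and 3978 in WT and 2539, 2361, 2931 and 2682 in Hint1-/- libraries. Replicate 3 of Hint1-/- lay just above replicate 2 of WT, at 140.9 and 137.9 CPM, and all other Hint1-/- libraries lay below all WT libraries. The mean fell from 164 ± 21.8 to 127 ± 11.3 CPM (SD, n = 4), with a fold change of 0.774 (0.696 to 0.861). In log2 the difference was −0.37, with an SE of 0.073 (adjusted p = 0.00113, edgeR), past the adjusted p but not the fold limit. The exact permutation test gave p = 0.0571 with n = 4. Ank varied more between libraries of a genotype than Mgp did at like counts. Its coefficient of variation was 13.3% in WT and 8.94% in Hint1-/- libraries, and that of Mgp was 3.95% and 3.79%. The sums of macrophage markers in WT replicates 1 to 4 were 2073, 2197, 2138 and 2382 CPM. Those of smooth muscle markers were 1468, 1352, 1467 and 1469 CPM. In Hint1-/- replicates 1 to 4 the macrophage sums were 1701, 1819, 1794 and 1735 CPM. The smooth muscle sums there were 1185, 1207, 1158 and 1117 CPM. The part of any cell type in the spread or the difference was not tested. Ank kept an adjusted p under 0.05 without any one library, with a highest value of 0.00721 in edgeR. The gene lies at chr15:27466677-27594909 on the plus strand and has 3.61 kb of exon.

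Enpp1 encodes the main enzyme that makes pyrophosphate from extracellular ATP. It was counted 543, 539, 609 and 598 times in WT and 540, 534, 520 and 486 times in Hint1-/- libraries. The ranges overlapped, since WT replicates 1 and 2 lay among the Hint1-/- libraries. The means were 27.4 ± 1.76 and 25.1 ± 1.19 CPM (SD, n = 4). The log2 fold change was −0.13 (95% interval −0.24 to −0.01), with an unadjusted p of 0.0348 but an adjusted p of 0.118 in edgeR, so the difference did not pass. The gene lies at chr10:24637914-24712159 on the minus strand.

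Enpp3, a related enzyme of the same family that also cleaves nucleotides, is the next gene on chromosome 10, 60.2 kb away at chr10:24772406-24842823 and on the same strand. Its counts were 43, 34, 36 and 38 in WT and 40, 41, 47 and 44 in Hint1-/- libraries, and these overlapped. The means of 1.81 ± 0.189 and 2.07 ± 0.148 CPM (SD, n = 4) gave a log2 fold change of 0.20 with an interval of −0.13 to 0.53 (adjusted p = 0.415, edgeR). The neighbours thus differed in sign, and neither passed the test.

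Abcc6, a transporter known for ATP release from the liver and for the calcifying disease pseudoxanthoma elasticum, was close to absent. The files list 1, 1, 0 and 0 counts in WT and 5, 0, 0 and 1 in Hint1-/- libraries. With 2 against 6 counts in all, the ratio was 3.02 with an exact 95% interval of 0.541 to 30.6, which covers counting error only, and 5 of the 6 counts came from 1 library. No difference was detectable at this depth. In a fit of 18409 genes without the filter, the adjusted p of Abcc6 was 0.516 (edgeR). The gene lies at chr7:45967555-46030302 on the minus strand.

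The ectoenzymes of the adenosine branch did not pass the test. Entpd1, which trims ATP and ADP to AMP, was counted 76, 55, 65 and 57 times in WT and 67, 61, 61 and 62 times in Hint1-/- libraries. All Hint1-/- values fell within the WT range, and the means were 3.03 ± 0.462 and 3.02 ± 0.140 CPM (SD, n = 4). The fold change had a 95% interval of 0.819 to 1.22 (adjusted p = 0.999, edgeR). The gene lies at chr19:40612366-40741602 on the plus strand.

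Nt5e forms adenosine from AMP, and people who lack it calcify the arteries of the legs. It was counted 29, 33, 32 and 44 times in WT and 37, 36, 40 and 40 times in Hint1-/- libraries. WT replicate 4 was above all Hint1-/- libraries and the other WT libraries were below them. The means were 1.65 ± 0.315 and 1.84 ± 0.0957 CPM (SD, n = 4), with an interval of the fold change of 0.868 to 1.44 (adjusted p = 0.572, edgeR). These intervals leave room for differences smaller than 1.5-fold in both genes. Nt5e lies at chr9:88327197-88372092 on the plus strand.

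The sodium-dependent phosphate carriers PiT-1 and PiT-2, encoded by Slc20a1 and Slc20a2, bring phosphate into the cell. Slc20a1 was counted 1807, 1960, 1869 and 1965 times in WT and 1765, 1694, 1762 and 1766 times in Hint1-/- libraries. All Hint1-/- libraries lay below all WT libraries, by a small margin. The mean fell from 90.9 ± 3.51 to 84.2 ± 1.56 CPM (SD, n = 4), a fold of 0.926, or −0.11 in log2 with an SE of 0.036 (adjusted p = 0.0339, edgeR). The call was lost without any one library other than WT replicate 1, with adjusted p between 0.0538 and 0.106 in edgeR, and in DESeq2 (adjusted p = 0.0543). Slc20a1 lies at chr2:129198764-129211616 on the plus strand.

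Slc20a2 was counted 1401, 1378, 1406 and 1455 times in WT and 1422, 1277, 1336 and 1324 times in Hint1-/- libraries after rounding. The deposited estimates for this gene were not whole in any of the 8 libraries, as happens when reads are shared out between genes. Replicate 1 of Hint1-/- lay within the WT range and the other 3 lay below it. The means were 67.4 ± 1.67 and 64.6 ± 2.89 CPM (SD, n = 4), with a log2 fold change of −0.06 (−0.14 to 0.02, adjusted p = 0.275, edgeR). The gene lies at chr8:22476788-22569612 on the plus strand.

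Mgp, the vitamin K–dependent inhibitor whose loss in mice calcifies the arteries, was counted 3246, 2982, 3062 and 3034 times in WT and 2902, 2646, 2746 and 2747 times in Hint1-/- libraries. No Hint1-/- library reached the lowest WT library. The mean fell from 147 ± 5.83 to 133 ± 5.04 CPM (SD, n = 4), a fold of 0.903, or −0.15 in log2 with an SE of 0.037 (adjusted p = 0.00758, edgeR). The difference was far within the fold limit, and it kept an adjusted p under 0.05 in all 16 alternatives. Mgp lies at chr6:136872435-136875823 on the minus strand and has 1.19 kb of exon.

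**Figure D3:**
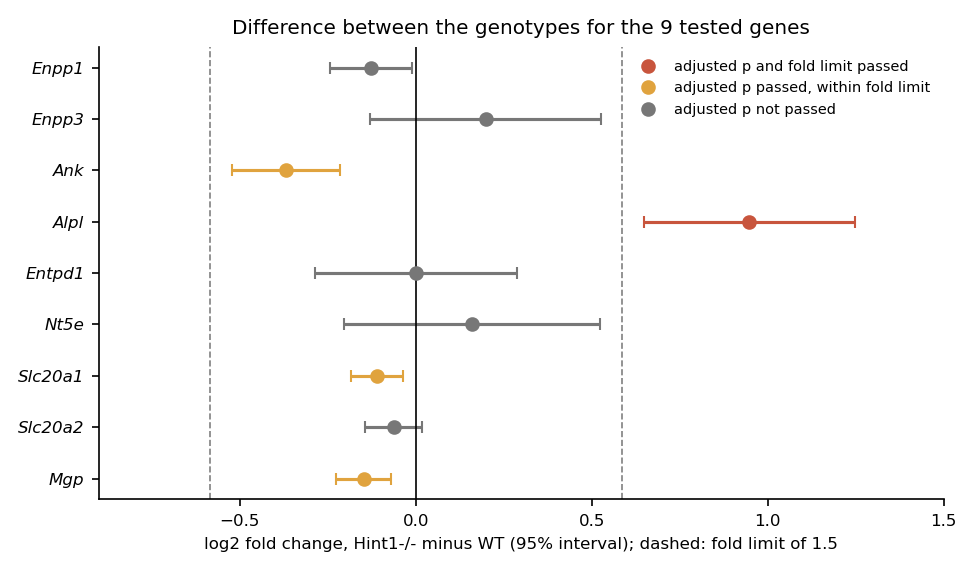
Log2 fold change (Hint1-/- minus WT) with its 95% interval for the 9 tested members, with dashed lines at a fold of 1.5 in either direction. Only Alpl lies wholly beyond a dashed line. The intervals of Ank, Mgp, Slc20a1 and Enpp1 lie below 0 and within the limit, though Enpp1 did not pass the adjusted p, and the wide intervals are those of the members with few counts.

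To compare the members with each other, CPM was divided by the length of exon in kb. This length joins the exons of all annotated transcripts of a gene and may exceed that of the form expressed here. The order of the members and the size of the ratios between genes depend on it. On this scale Mgp was highest, at 124 in WT and 112 in Hint1-/- libraries. Ank followed at 45.3 and 35.1, Slc20a1 at 16.3 and 15.1, Slc20a2 at 10.9 and 10.4, and Enpp1 at 2.67 and 2.44 CPM per kb. The remaining members were below 1.1 CPM per kb in every library. They were Entpd1 at 0.542 in both genotypes, Alpl at 0.495 in WT and 0.956 in Hint1-/-, Enpp3 at 0.3002 and 0.344, Nt5e at 0.192 and 0.214, and Abcc6 at 0.00418 and 0.0126 CPM per kb. Neighbours in the WT order were separate in all 4 libraries except Entpd1 and Alpl, at 0.470 to 0.653 and 0.390 to 0.558. In Hint1-/- libraries Alpl, at 0.860 to 1.03, lay above Entpd1, at 0.526 to 0.579, and took the 6th place.

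The transcripts of the phosphatase and of the pyrophosphate-forming enzyme were also set against each other. Alpl per Enpp1, on the length-scaled levels, was 0.156 to 0.215 in the WT libraries and 0.377 to 0.405 in the Hint1-/- libraries. Enpp1 stayed above Alpl in all 8. Slc20a1 per Slc20a2 was 1.44 to 1.58 in WT and 1.38 to 1.49 in Hint1-/- libraries, and Enpp1 per Enpp3 was 7.41 to 9.92 and 6.48 to 7.92, so both pairs of ranges overlapped. These ratios describe transcripts and were not tested.

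**Figure D4:**
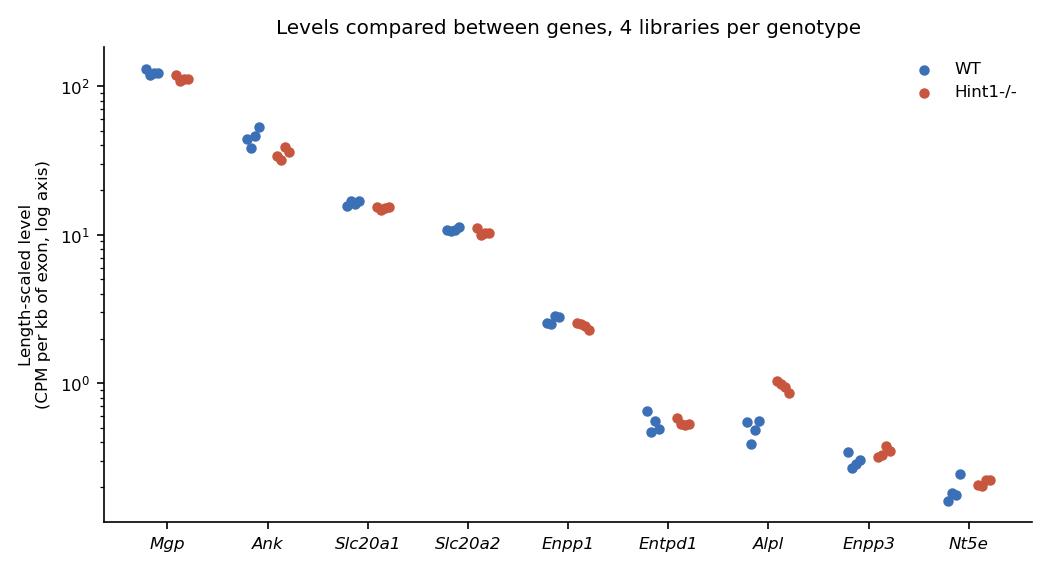
Length-scaled level (CPM per kb of exon, log axis) of the 9 tested members in each of the 4 WT (blue) and 4 Hint1-/- (red) libraries, in the order of the WT means. The order runs from Mgp, above 100, to Nt5e, near 0.2, and Alpl is the gene whose Hint1-/- points stand clearly above its WT points.

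The wider pathway was read through 6 lists of 80 other genes, of which 78 were in the files and 58 were tested. Of the 58, 4 rose and 4 fell past both thresholds (13.8%, against 2.83% of all genes). With the adjusted p alone, 9 rose and 8 fell (29.3%, against 21.5%). Their median log2 fold change was −0.01. The lists were chosen with earlier results of these data known, so these shares are a description and no test of the pathway. Dlx5 passed the filter on low counts only through Hint1-/- libraries, and Acan and P2ry14 only through WT libraries. Their part in the 13.8% thus depends on that filter. With at least 10 counts required in every sample, 3 list genes passed both thresholds. The count of 8 fell to between 4 and 6 when a library was left out. It was 5 without WT replicate 1 or 2 or without Hint1-/- replicate 1 or 4, and 4 without Hint1-/- replicate 2.

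Among 13 other genes of nucleotide hydrolysis, 10 were tested and 0 passed both thresholds in edgeR, DESeq2 or limma-voom. In edgeR, 2.83% of all tested genes passed both. The median was −0.04, and in edgeR 2 genes were higher and 1 lower at an unadjusted p under 0.05. Enpp2 (autotaxin, which makes lysophosphatidic acid) was the 1 gene with an adjusted p under 0.05 (10%, against 21.5% of all genes). It rose by 0.18 in log2 (adjusted p = 0.00757, edgeR). Cant1, Enpp5 and Enpp4 were at 0.08, 0.11 and −0.16 and did not pass. Entpd4 could not be read, as its counts of 0 to 233 in WT and 0 to 175 in Hint1-/- libraries were traded with the near-identical Entpd4b. The sum of the pair was 1435 to 1485 and 1538 to 1629 counts, higher in every Hint1-/- library than in any WT library, and was not tested. Genotypes did not overlap for 23.0% of all genes. Entpd4 by itself is still among the 10 tested and in the median.

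Of 11 genes that clear, carry or sense adenosine, 10 were tested, and the median was 0.02. Of these, 1 rose and 1 fell (20%, against 21.5% of all genes in either direction). Adora3, the A3 adenosine receptor, was counted 152, 128, 142 and 131 times in WT and 94, 76, 76 and 92 times in Hint1-/- libraries, without overlap. It fell by 0.70 on the log2 scale (SE 0.11, adjusted p = 0.000101, edgeR). Adora3 is known as a gene of myeloid cells too. Of the 7 macrophage markers 5 fell and 2 (Itgam and Mrc1) did not pass, with a median of −0.32 in log2, and their part in the Adora3 difference was not tested. Dpp4, which binds adenosine deaminase at the cell surface, had 1, 48, 16 and 15 counts in WT and 64, 37, 53 and 33 in Hint1-/- libraries. Its log2 fold change of 1.23 (SE 0.42, adjusted p = 0.045, edgeR) rested on overlapping libraries. It went from 0.84 (adjusted p = 0.0944, edgeR) without WT replicate 1 to 2.13 (adjusted p = 0.0007, edgeR) without WT replicate 2, and was 1.97 in limma-voom. The call was also lost without WT replicate 3 or 4 or Hint1-/- replicate 1, 2 or 3, and in DESeq2 (adjusted p = 0.358). The most abundant genes of the list, Slc29a1, Adk, Adora2b and Slc29a3, were at 0.04, −0.03, 0.08 and 0.04 and did not pass.

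Of 18 genes for ATP release and P2 receptors, 12 were tested, with a median of −0.04. Of these, 3 fell (25%, against 10.2% of all genes) and 0 rose. Panx1, a channel that releases ATP, fell by 0.43 on the log2 scale (adjusted p = 1.28e-05, edgeR), and Gja1, which encodes connexin 43, fell by 0.17 (adjusted p = 0.00104, edgeR). Both were within the fold limit. P2ry14, a receptor for UDP-sugars, was counted 11, 15, 13 and 14 times in WT and 8, 7, 7 and 6 times in Hint1-/- libraries. It passed the filter on low counts only through its WT libraries, and it is among the 3 that fell. Its log2 fold change was −0.90 (adjusted p = 0.0343, edgeR), and the call was lost in 10 of 15 alternatives, including without any one library other than WT replicate 1. The receptors P2rx4 and P2ry6 were at 0.03 and −0.11 and did not pass.

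Of 13 genes of phosphate handling, 9 were tested, with a median of −0.003. Of these, 2 rose and 2 fell (44.4%, against 21.5% of all genes in either direction). Fgf23, the hormone known for lowering blood phosphate through the kidney, was counted 139, 117, 108 and 121 times in WT and 222, 192, 197 and 234 times in Hint1-/- libraries. Every Hint1-/- library lay above every WT library. The level rose from 5.80 ± 0.634 to 10.2 ± 0.963 CPM (SD, n = 4), 0.81 in log2 (SE 0.094, adjusted p = 3.94e-06, edgeR). Phospho1, a phosphatase of matrix vesicles that was named after its values were seen, went from 91 to 131 counts in WT to 151 to 164 in Hint1-/- libraries. It rose by 0.54 on the log2 scale (adjusted p = 0.000787, edgeR), within the fold limit. Smpd3, a sphingomyelinase needed for bone mineralization, had 30, 27, 18 and 15 counts in WT and 13, 9, 16 and 7 in Hint1-/- libraries. Its log2 fold change of −0.98 (adjusted p = 0.0242, edgeR) came with overlapping libraries and was lost without WT replicate 1 or 2 or Hint1-/- replicate 2 or 4, at adjusted p between 0.0655 and 0.0931. The mitochondrial carrier Slc25a3 fell by 0.13 (adjusted p = 0.00729, edgeR), and Fgfr1, Ppa1 and the phosphate exporter Xpr1, at 0.03, −0.003 and 0.08, did not pass.

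The list of the vitamin K cycle, which activates MGP, and of other inhibitors held 9 genes. Of the 8 tested, 1 rose and 1 fell (25%, against 21.5% of all genes in either direction), and the median was 0.03. Spp1 (osteopontin), which binds to mineral and inhibits its growth, was counted 178588 to 207599 times in WT and 149525 to 163335 times in Hint1-/- libraries and fell by 0.28 on the log2 scale (adjusted p = 8.69e-05, edgeR). Spp1 is also made by macrophages, of whose 7 markers 5 fell and 2 did not pass, and their part was not tested. Fetub, a relative of the blood inhibitor fetuin-A, had 16, 18, 17 and 27 counts in WT and 30, 28, 25 and 38 in Hint1-/- libraries. These overlapped, and its log2 fold change of 0.64 (adjusted p = 0.0479, edgeR) lost its call in 9 of 16 alternatives, among them all but WT replicate 4 and Hint1-/- replicate 3 of the left-out libraries. Gas6, Vkorc1 and Tnfrsf11b (osteoprotegerin) were at 0.03, −0.10 and 0.16 and did not pass.

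Of 16 osteochondrogenic genes, 9 were tested, and the median was 0.34. The other 7 (Sp7, Bglap, Bglap2, Ibsp, Dmp1, Phex and Sost) were too low to test. The median was the value of Bmp2, which did not pass (adjusted p = 0.375, edgeR). Col10a1, at −0.62 in log2, did not pass either (adjusted p = 0.148, edgeR). With the adjusted p alone, 4 rose and 1 fell (55.6%, against 21.5% of all genes in either direction). Dlx5, a homeobox factor of bone formation, was counted 5, 7, 3 and 1 times in WT and 11, 19, 19 and 20 times in Hint1-/- libraries, 2.09 in log2 (SE 0.39, adjusted p = 0.00066, edgeR). Acan, which encodes the cartilage proteoglycan aggrecan, went the other way, with 23, 18, 15 and 14 counts in WT and 6, 5, 2 and 6 in Hint1-/- libraries, −1.84 in log2 (SE 0.34, adjusted p = 0.000615, edgeR). The libraries of the genotypes did not overlap for either gene. Sox9, Bmp4 and Msx1 rose by 0.48, 0.41 and 0.49 on the log2 scale (adjusted p = 3.58e-06, 0.0001 and 0.0459 in edgeR), within the fold limit. Msx1 had few counts, 24 to 30 in WT and 34 to 41 in Hint1-/- libraries. The fold changes of these genes were not followed in the alternatives, so their dependence on single libraries was not tested. Runx2, the master factor of bone, was at −0.05 (adjusted p = 0.612, edgeR). The sum of chondrocyte markers, carried by Col2a1, was higher in Hint1-/- libraries as given above.

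**Figure D5:**
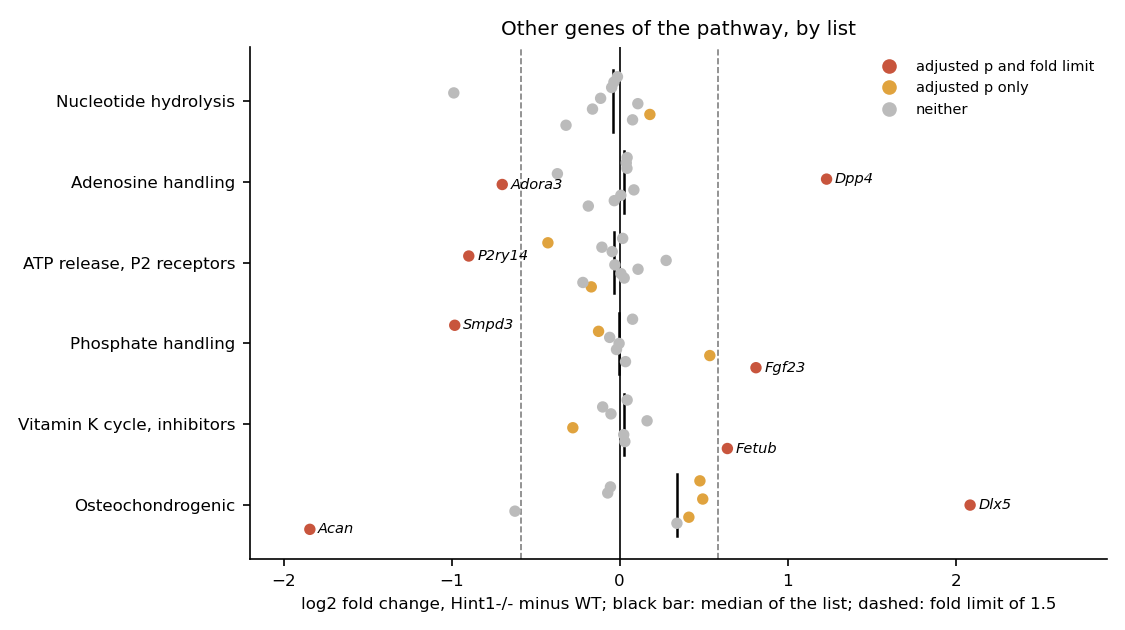
Log2 fold change (Hint1-/- minus WT) of the 58 tested genes of the 6 lists, with the list median as a black bar and dashed lines at a fold of 1.5. The medians of 5 lists lie within 0.05 of 0 and that of the osteochondrogenic list at 0.34, and the 8 genes past both thresholds are named, 4 on each side of 0.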

How the data were processed

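RNA-Seq libraries from PDGF-BB–treated MASMCs, 4 WT and 4 Hint1-/-, were analysed. The authors mapped reads to mm10 and deposited estimated counts per gene symbol without normalization, as the labels and methods describe. Their methods name HISAT2 and mm10, while the submitters' processing notes name Bowtie2, RSEM 1.3.1, DESeq2 1.4.5 and mm10. The gene annotation and whether strand was used are not given in the sources used here.

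Counts were rounded to whole numbers. After edgeR's filterByExpr and TMM scaling, the genotypes were tested by glmQLFit with glmQLFTest (edgeR 4.0.16, R 4.3.3), with genotype as the only term and Benjamini-Hochberg adjustment over 13535 genes. "Rose" and "fell" mean an adjusted p under 0.05. The SE is the log2 fold change over the square root of F. CPM used TMM-scaled library sizes. Log2 CPM, used for the permutation tests and correlations, had a prior count of 2. Exon lengths and positions are from GENCODE M21 (mm10). Totals were 20778077 to 20888041 counts, and the biological coefficient of variation was 3.79%. Counting noise is largest where counts are few, so genes with few counts are the least precise, with no sharp limit. Pairs of libraries within a genotype differed by 2.19 to 6.02 chi-square units per gene, above sampling noise, so none was counted as a duplicate. The steps were tested on simulated data.

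The members and lists were chosen with earlier results of these data known. All members were named. Of the lists, genes past both thresholds and up to 4 others with the highest mean CPM were named. Phospho1, Entpd4, Bmp2, Col10a1 and the untested osteochondrogenic genes are exceptions, named after their values were seen. For Alpl, the 3 genes with the highest correlation were named. Alternatives were other normalizations and filters, DESeq2 1.42.0, limma-voom (limma 3.58.1), a replicate block, no fold limit, and each library left out.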

Additional observations from a re-analysis of the deposited data

Results flagged for a closer look

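In 34 groups of 4 libraries (the members and the genes past both thresholds, in each genotype), the gap of the highest or lowest library to its nearest neighbour was set against the range of the group. It exceeded Dixon's 95% critical value in 2 groups, and chance flags about 1 in 20 groups, or 1.7 of 34. For Slc20a1 in Hint1-/- libraries, replicate 2 (1694 counts) stood apart from the others (1762 to 1766 counts), and on log2 CPM the gap took 0.875 of the range. Without that library the adjusted p of Slc20a1 was 0.106 in edgeR. For Dlx5 in Hint1-/- libraries, replicate 1 (11 counts) stood apart from the others (19 to 20 counts), with a gap of 0.908 of the range. Dlx5 kept its call without that library.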

How the results depend on the processing

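Of 211 recomputed values of the main results (counts of calls, member fold changes), 186 were taken as the same. For a fold change this meant the same direction and side of the adjusted p threshold, and for a count a value within 1.5 times. Another 10 counts moved by more than 1.5 times, and 8 values of Slc20a1 lost their call. The other 7, all of Entpd1, which was not called, changed sign. Members with an adjusted p under 0.05 went from 4 to 3 in DESeq2 and without any one library other than WT replicate 1. The members past the thresholds went from 1 to 4 with no limit on the fold change, and all tested genes from 383 to 2907. The 8 called list genes became 17 without the fold limit, 5 in DESeq2, 3 with at least 10 counts required in every sample, and 4 to 6 with each library left out. The stricter filter leaves out Dlx5, Acan, P2ry14, Smpd3 and Dpp4, and the cause of the DESeq2 count was not tested. Slc20a1 had a log2 fold change of −0.11 in DESeq2 (adjusted p = 0.0543) and −0.13 to −0.0931 with each library left out. The other tested members kept their sign in every alternative. The log2 fold change of Entpd1, −0.0005 as reported, was 0.0106 in limma-voom, 0.00299 with a replicate block and −0.0635 to 0.101 with each library left out, with adjusted p of 0.683 or more throughout. Deviations of same-numbered libraries of the genotypes were weakly correlated, at −0.045 to 0.081 over 4 pairs. Of the 4 WT libraries, 2 correlated best with their own number. With so few pairs this cannot settle whether the numbers pair the libraries. The fit with a replicate block gave 382 changed genes, the same 1 member past both thresholds and 7 list genes, with P2ry14 at an adjusted p of 0.0535. In that fit the adjusted p was 8.58e-06 for Ank and 0.0021 for Mgp, against 0.00113 and 0.00758 without the block (edgeR). Among the members, depth limits Alpl, Enpp3, Nt5e, Entpd1 and Abcc6 most, all under 100 counts per library.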
